A study of Mus musculus with 52 samples.

Results

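The response of bone marrow stromal cell cultures to 1 day of rosiglitazone was measured on 8 arrays, 4 of cultures given rosiglitazone and 4 of cultures given vehicle, out of 52 arrays in the series. The arrays were chosen by title: those labelled D1Rosi against those labelled D1Vh, each present once for the numbers 12, 15, 19 and 20, which stand for 4 pools of animals. All groups were primary marrow cultures of female C57BL/6J mice aged 8 weeks, flushed from long bones and pooled from 2 to 4 animals. On day 7 after plating the cultures went into osteoinductive medium, which holds ascorbate, β-glycerol phosphate, insulin and 10 nM dexamethasone, a glucocorticoid. Rosiglitazone was given at 100 nM and vehicle was DMSO at 0.1%, both for 1 day from the start of that medium. Naive cultures were harvested before it. Also used below are day 4 arrays of rosiglitazone and vehicle, and day 1 arrays of LG268 (LG100268, 100 nM), TBT (80 nM), TPhP and MEHP, for which the labels give no dose. A pool of animals is the replicate, so p-values measure the spread between pools cultured in parallel. The cultures were mixed: no sort is described, and each array measured RNA of all the cells in a well.

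Rosiglitazone is a ligand of PPARγ, a nuclear receptor that binds DNA together with its partner RXR at direct repeats called PPAR response elements, and that switches on genes of fat storage and fat burning in adipocytes. Stromal cells of the marrow can become bone-forming osteoblasts or marrow adipocytes. Thiazolidinediones such as rosiglitazone are known to increase marrow fat and to reduce bone formation. The comparison shows which transcripts differed 1 day after a PPARγ ligand was added to cells that had just been placed in bone-forming conditions.

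The labelled cell type was checked against marker lists. All 19 genes of the marrow stromal niche list and 19 of 22 osteoblast genes lay above 4.05, the median of the whole table on the log2 scale, on all 8 arrays. Markers of blood cells did so too: 25 of 27 macrophage genes, 18 of 18 neutrophil genes and 9 of 13 B cell genes, against 4 of 15 T and NK cell genes. It was likewise for 18 of 19 endothelial, 22 of 23 contractile, 13 of 16 osteoclast and 7 of 8 erythroid and megakaryocyte genes. The share of all genes above this level on all 8 arrays was not counted, so these counts have no background beside them. Array medians of the 8 arrays ran from 3.97 to 4.12, and with 4 arrays a group the precision is limited. In such bulk samples, fewer cells of a type and less RNA per cell cannot be told apart.

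After 1 day, 621 of 14911 genes tested were higher with rosiglitazone (4.16%) and 460 were lower (3.08%), 7.25% in either direction, by limma with a Benjamini-Hochberg adjusted p under 0.05. In the text below, "rose" and "fell" are used only for such genes, and differences are on the log2 scale with limma's SE, between 4 and 4 arrays. The sign was the same in 4 of 4 pools for 620 of the 621 rises and for 455 of the 460 falls. The rises were the larger: 185 exceeded 1 on the log2 scale and 15 exceeded 3, while 80 falls exceeded 1 and 0 exceeded 3. The median difference of the genes that rose was 0.68, that of the genes that fell was -0.59, and that of all genes tested was 0.00. Fewer genes were called with 3 pools: leaving out pool 12 gave 1013 calls, pool 15 759, pool 19 585 and pool 20 430, against 1081 with all 4. Of these, 888, 724, 581 and 428 were among the 1081.

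The receptor's own gene and its closest partners in fat cell formation rose modestly. Pparg, which encodes PPARγ, read 8.93, 8.95, 8.90 and 8.98 in vehicle (here and below in the order of pools 12, 15, 19 and 20) and 9.47, 9.43, 9.54 and 9.70 with rosiglitazone. Its difference was 0.59 ± 0.14 (adjusted p = 0.00277), a 1.51-fold rise in a gene whose vehicle arrays lay close together. Cebpa, the transcription factor that works with PPARγ in adipocytes, went from 8.84, 8.58, 8.70 and 8.71 to 9.54, 9.72, 9.75 and 9.94, with a difference of 1.03 ± 0.15 (adjusted p = 2.76e-06). The groups did not overlap for either gene, as was so with the higher level under rosiglitazone for 9.20% of all genes tested. Nr1h3, which encodes the oxysterol receptor LXRα, rose by 1.00 ± 0.15, and Stat5a, a growth hormone and prolactin signal transducer, by 0.55 ± 0.10. Of 24 tested genes on the adipocyte transcription factor list, 6 rose and 0 fell, and the median of the list was 0.08. Rxra, the gene of PPARγ's partner, differed by 0.25 ± 0.09 (adjusted p = 0.0697, and 0.0269 with the pool as a replicate block). Without pool 20, Pparg was not called (adjusted p = 0.086) and 3 of the 24 rose.

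Proteins that coat and shape lipid droplets made up several of the largest rises. Plin1, the coat protein perilipin 1 of adipocyte droplets, read 4.26, 4.59, 4.92 and 4.38 in vehicle and 9.08, 9.37, 9.17 and 9.43 with rosiglitazone. This was the second largest rise of all, at 4.73 ± 0.42 or 26.5-fold (adjusted p = 3.45e-11), and it started from a level near the table median. Cidec, which fuses droplets into larger ones, went from 3.12, 4.04, 5.16 and 5.41 to 9.41, 9.13, 8.82 and 9.03. Its vehicle arrays were spread over more than 2 log2 units, 2 of them under 4.05, so the size of its rise (4.67 ± 0.80) is less certain than that of Plin1. G0s2, an inhibitor of the triglyceride lipase encoded by Pnpla2, rose by 3.35 ± 0.23, Fitm2, which acts in droplet budding, by 2.17 ± 0.28, and Plin4, another coat protein, by 1.87 ± 0.26. In all, 6 of 15 tested lipid droplet genes rose and 0 fell, and the list's median was 0.32. Cidea, a droplet protein of brown fat, lay under 4.05 on all 8 arrays (0.15 ± 0.48).

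**Figure D1:**
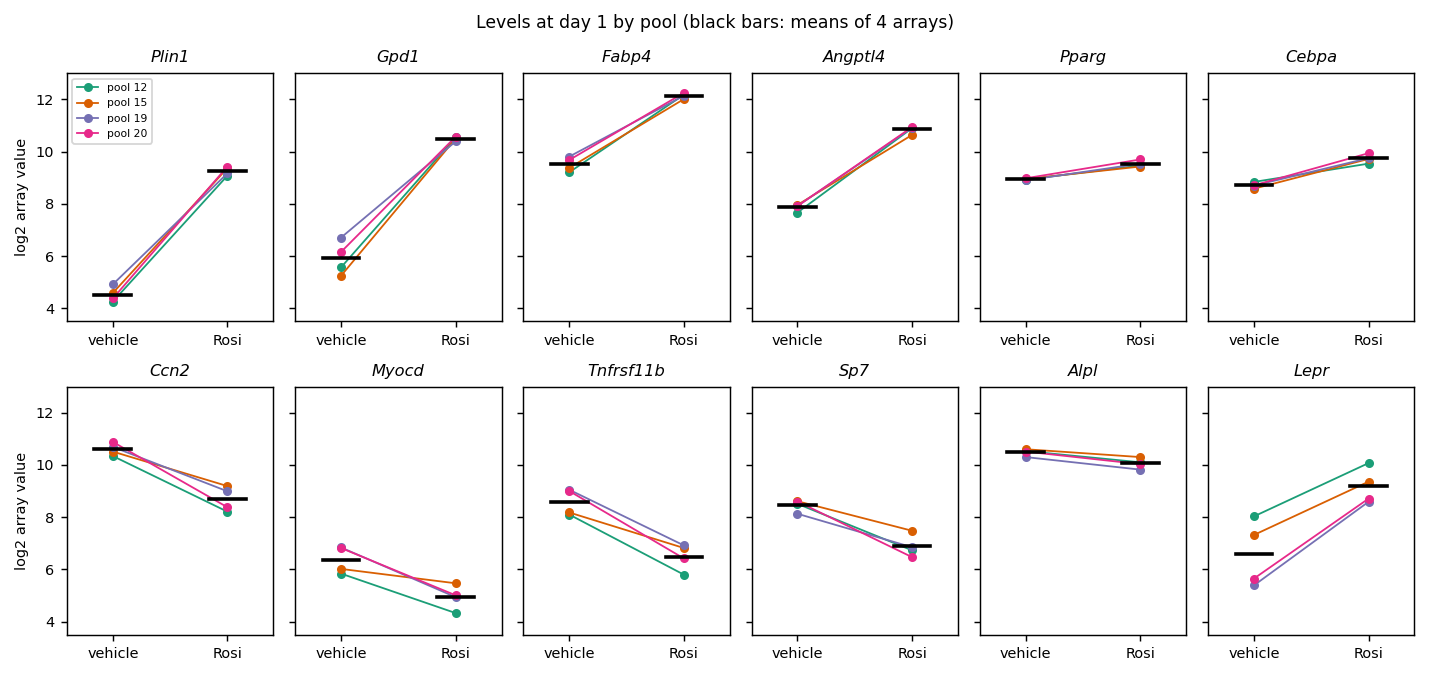
Log2 array values (y axis) of 12 genes in vehicle and rosiglitazone (Rosi) cultures at day 1, with a line joining the arrays of each pool and black bars at the means of 4 arrays. Plin1 went from between 4.26 and 4.92 to between 9.08 and 9.43, Ccn2 fell in all 4 pools, and the Lepr values of pools 12 and 15 lay above those of pools 19 and 20 in both groups.

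Genes of triglyceride breakdown rose along with those of triglyceride assembly. Of 12 tested lipolysis genes 9 rose and 0 fell, with a list median of 1.67. Aqp7, the channel through which glycerol leaves the fat cell, read 6.89, 6.75, 6.66 and 6.94 in vehicle and 10.19, 10.50, 10.20 and 10.31 with rosiglitazone, a difference of 3.49 ± 0.24 (adjusted p = 1.91e-14). Hcar1, the lactate receptor that restrains lipolysis, rose from 5.31, 5.14, 5.14 and 5.35 to 8.97, 8.78, 8.82 and 8.96, or by 3.65 ± 0.29. Both genes varied by less than 0.4 within a group, which is small beside the difference. Pnpla2, the first lipase of triglyceride breakdown, rose by 1.92 ± 0.19 and Abhd5, its activator, by 1.86 ± 0.14. On the assembly side, 8 of 16 tested genes rose, 1 fell and the median was 0.67. The fall was that of Lpin3, a lipin, named after its value was seen, and without pool 20 the count of falls was 0. Gpd1, which makes glycerol 3-phosphate, the backbone of triglyceride, went from 5.57, 5.25, 6.71 and 6.16 to 10.55, 10.50, 10.39 and 10.57 (4.58 ± 0.51, 24.0-fold). The acyltransferases that add the fatty acids rose too: Gpat3 by 2.65 ± 0.30 for the first, and Dgat2 by 2.85 ± 0.38 and Dgat1 by 1.88 ± 0.26 for the last.

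Receptors and signalling enzymes of the fat cell surface were among the 15 largest rises as well. Adcy5, an adenylyl cyclase, which makes cyclic AMP, rose from 4.10, 3.99, 4.48 and 4.25 to 6.98, 7.47, 7.42 and 7.79, or by 3.21 ± 0.24. Mc5r, a melanocortin receptor, rose by 3.17 ± 0.33 from 6.86, 6.70, 6.30 and 6.22 to 9.49, 9.94, 9.44 and 9.89. Klb, the co-receptor for the hormone FGF21, rose by 3.27 ± 0.38 and Sptlc3, a subunit of the enzyme that starts sphingolipid synthesis, by 3.16 ± 0.52. For Klb 3 and for Sptlc3 4 of the vehicle arrays lay under 4.05, so these sizes are uncertain. Lgals12, a galectin found on lipid droplets, rose by 4.53 ± 0.37 with 2 vehicle arrays under that level. Aldh1a7, an aldehyde dehydrogenase, rose by 3.90 ± 0.50, likewise with 2 under it. Its sequence is close to that of Aldh1a1, so signal from the relative may be included.

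Genes for uptake of fatty acids from outside the cell gave 5 rises and 0 falls among 16 tested (median 0.37). Fabp4, the fatty acid carrier of adipocytes, was already high in vehicle at 9.21, 9.38, 9.81 and 9.68 and reached 12.18, 12.01, 12.14 and 12.25, a difference of 2.62 ± 0.20 (adjusted p = 2.09e-13). Angptl4, a secreted inhibitor of lipoprotein lipase and a classical PPAR target, read 7.67, 7.96, 7.92 and 7.92 in vehicle and 10.90, 10.64, 10.91 and 10.94 with rosiglitazone (2.98 ± 0.18, adjusted p = 1.86e-16). Lpl, lipoprotein lipase itself, rose by 0.84 ± 0.10 from 11.08, 10.66, 10.93 and 10.94, near the top of the scale. Cd36, the fatty acid transporter, rose by 0.86 ± 0.16. Lpl and Cd36 were lower in vehicle than in naive cultures (differences of -0.64 and -0.87, adjusted p = 1.28e-05 and 0.000159), a comparison that shares the vehicle arrays.

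In fatty acid synthesis, of 16 tested genes 4 rose and 0 fell (median 0.29): Scd1, the desaturase, by 1.16 ± 0.28, Mlxipl, the carbohydrate-sensing factor ChREBP, by 0.99 ± 0.26, Acaca, acetyl-CoA carboxylase, by 0.83 ± 0.25 and Srebf1, the lipogenic transcription factor SREBP1, by 0.68 ± 0.19. The count moved with the pools, with 3 of 16 called without pool 12, 0 without pool 15 (Mlxipl, with adjusted p = 0.0508, came nearest), 1 without pool 19 and 1 without pool 20. LXR targets gave 5 rises of 15 tested (median 0.09). They were Abcg1, a cholesterol exporter, at 1.63 ± 0.24, Lpcat3, a phospholipid remodelling enzyme, at 0.56 ± 0.13, and Scd1, Srebf1 and Nr1h3. These last genes are on the lists of fatty acid synthesis or adipocyte transcription factors as well. The LXR list had 3 rises without pool 15 and 3 without pool 19. Abca1, the main exporter of cholesterol to apolipoprotein A-I, differed by 0.37 ± 0.16 (adjusted p = 0.195, and 0.0353 with the replicate block), and its vehicle arrays were uneven at 9.26, 8.26, 8.64 and 8.41. Of 19 genes of sterol synthesis and uptake, limma called 0, with 0 higher and 3 lower at an unadjusted p under 0.05 and a median of -0.17. With the replicate block 2 of them fell.

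Mitochondrial β-oxidation, the pathway that burns fatty acids, rose broadly but by small steps. Of 24 tested genes 14 rose and 0 fell, all 24 lay above 0 and the list's median was 0.54, against 0.00 over all genes. Acaa2, the thiolase of the last step, went from 7.62, 7.65, 7.56 and 7.66 to 8.79, 8.85, 8.80 and 8.77 (1.18 ± 0.17, adjusted p = 1.67e-06). Acadm, the medium-chain dehydrogenase, rose by 0.96 ± 0.17, Ech1, a dienoyl-CoA isomerase, by 0.92 ± 0.13, and Hadh, the hydroxyacyl-CoA dehydrogenase, by 0.88 ± 0.18. The count was 9 without pool 19 and 7 without pool 20. Peroxisome genes gave 10 rises and 0 falls of 27 (median 0.28), with Pex16 and Pex13, which build the organelle, at 1.38 ± 0.20 and 0.64 ± 0.12, and Scp2, a lipid carrier and thiolase, at 1.24 ± 0.18. There were 6 without pool 19 and 5 without pool 20. Pdk4, the pyruvate dehydrogenase kinase often counted among PPAR targets, did not follow: it read 9.17, 9.41, 9.13 and 9.20 in vehicle and 9.34, 9.50, 9.12 and 9.10 with rosiglitazone (0.04 ± 0.18, 95% confidence interval from -0.33 to 0.40).

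On the list of the tricarboxylic acid cycle, which takes up the product of β-oxidation, 4 of 25 tested genes rose and 0 fell. All 25 lay above 0, with a median of 0.24. Of the rises, Aco1 (0.99 ± 0.16) and Idh1 (0.56 ± 0.10) encode an aconitase and an isocitrate dehydrogenase of the cytosol, outside the mitochondrial cycle. Those within the cycle were Idh3a (0.79 ± 0.21), an isocitrate dehydrogenase subunit, and Suclg2 (0.41 ± 0.10), a succinyl-CoA ligase subunit. Of 35 respiratory chain genes limma called 0, with 2 higher and 0 lower at an unadjusted p under 0.05, and the list's median was 0.11. In branched-chain amino acid breakdown 2 of 19 rose, Bckdhb (1.19 ± 0.21) and Aldh6a1 (0.97 ± 0.25), with a median of 0.30. With only the 8 arrays in the fit, 11 of those 19 and 11 of the 25 genes on the cycle list rose. Without pool 20, Idh3a (adjusted p = 0.127), Suclg2 (0.051) and Aldh6a1 (0.0975) were not called. Idh3a was not called without pool 15 either (0.0568). Aldh6a1 was lost without pool 15 (0.0765) and without pool 19 (0.0527). With the mean of probe sets, Suclg2 (limma adjusted p = 0.142) and Aldh6a1 (0.0638) were not called.

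Thermogenic genes had levels on both sides of the table median: of 17 genes, 7 lay above it on all 8 arrays and 6 under it on all 8. Ucp1, the uncoupling protein of brown fat, read 3.46, 3.19, 2.99 and 3.25 in vehicle and 3.19, 3.39, 3.33 and 3.55 with rosiglitazone, all under the table median (0.14 ± 0.20, adjusted p = 0.801). Ppargc1a, the coactivator PGC-1α, also lay under it on all 8 arrays, at 2.67, 3.26, 2.82 and 3.01 against 3.54, 3.88, 3.48 and 3.56 (0.67 ± 0.30, adjusted p = 0.218). The groups did not overlap for Ppargc1a, as was so with the higher level under rosiglitazone for 9.20% of all genes tested. With only the 8 arrays in the limma fit Ppargc1a was called (adjusted p = 0.0133). Of 16 tested thermogenic genes 3 rose and 0 fell (median 0.15): Ppargc1b, a related coactivator (0.98 ± 0.22), Otop1, a proton channel (0.81 ± 0.18, 4 vehicle arrays under 4.05), and Prdm16, a regulator of beige fat (0.62 ± 0.15). A stricter filter on low values set these 3 aside, and 0 of the 10 genes then tested rose. Of these 3, 2 rose without pool 12 (Prdm16 adjusted p = 0.0514) and 1 without pool 20 (Otop1 0.0517 and Prdm16 0.0946).

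Among secreted products, Adipoq, which encodes adiponectin, rose from 6.84, 6.43, 5.38 and 5.06 to 9.30, 9.08, 8.74 and 8.86, a difference of 3.07 ± 0.33 (adjusted p = 3.89e-09). Pools 12 and 15 were the higher in both groups. The highest vehicle array stayed below the lowest rosiglitazone array, as was so for 9.20% of all genes tested. Adipor2, an adiponectin receptor, rose by 1.61 ± 0.12, and Retn, the hormone resistin, by 1.76 ± 0.55. The adipokine list had 3 rises and 0 falls of 14 (median 0.16). Retn was not called when any 1 pool was left out (adjusted p from 0.0769 without pool 12 to 0.143 without pool 19), which leaves 2. Genes of insulin action gave 5 rises and 0 falls of 19 (median 0.46). Trarg1, which helps move the glucose transporter GLUT4, rose from 7.36, 7.08, 7.53 and 7.74 to 9.93, 9.93, 10.07 and 10.19 (2.60 ± 0.20). Slc2a4, the GLUT4 gene, rose by 1.47 ± 0.38, Irs2, an adaptor of the insulin receptor, by 1.01 ± 0.15 and Insr, the receptor, by 0.91 ± 0.18. Slc2a4 was lost without pool 15 (adjusted p = 0.0679) and pool 20 (0.0763). The count of rises was 8 without pool 12, 3 without pool 15 and 3 without pool 20.

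Car3, a carbonic anhydrase abundant in fat, had the largest rise of all, from 6.66, 7.18, 7.60 and 7.26 to between 11.78 and 12.02 (4.74 ± 0.63, 26.7-fold). Another probe set of the gene differed by 4.92. Its relatives Car5b (1.90 ± 0.34), of the mitochondrion, and Car13 (1.14 ± 0.12), of the cytosol, rose too, in a list with small carriers that had 5 rises and 1 fall of 11 (median 0.43). The fall, that of the water channel gene Aqp1, named after its value was seen, was not called without pool 12, pool 19 or pool 20. Among enzymes of xenobiotic metabolism 5 of 22 rose and 0 fell (median 0.32). They included Adh1, an alcohol dehydrogenase that also oxidises retinol (3.38 ± 0.56), Fmo1, a flavin monooxygenase (2.21 ± 0.30), Ephx2, an epoxide hydrolase (1.45 ± 0.34), and Aldh3a1, an aldehyde dehydrogenase (1.13 ± 0.33). Aldh3a1 was lost without pool 15 (adjusted p = 0.0676), pool 19 (0.103) and pool 20 (0.177), and the count was 3 without each of these. Rdh10, a retinol dehydrogenase, rose by 0.70 ± 0.13, and Rarg, a retinoic acid receptor, fell by 0.34 on the log2 scale (SE 0.09). These and Aldh1a7 were the 3 of 16 genes called on the retinoid list. Rarg was not called without pool 12 (adjusted p = 0.109), pool 19 (0.102) or pool 20 (0.209).

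**Figure D2:**
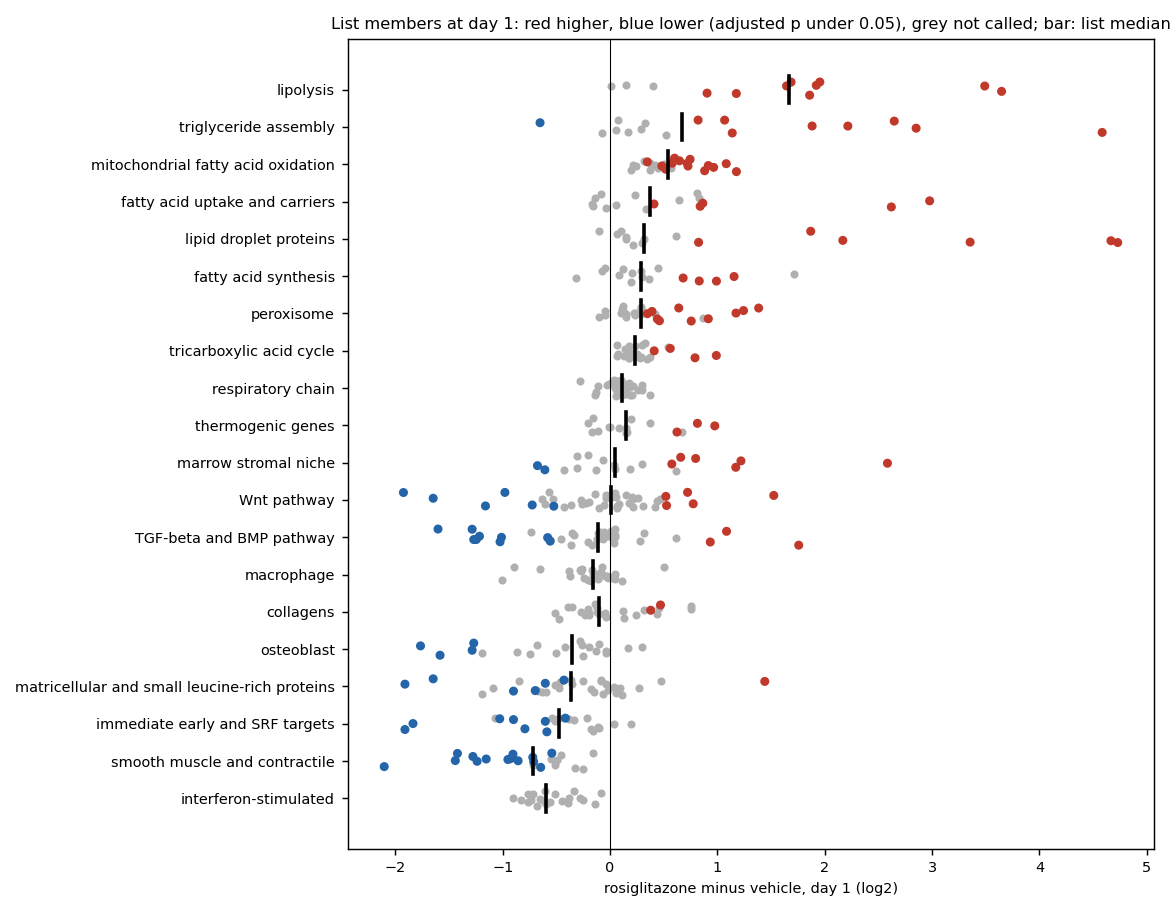
Difference between rosiglitazone and vehicle at day 1 (x axis, log2) for each tested member of 20 gene lists; red points rose, blue points fell, grey points were not called, and black bars are list medians. Lipolysis had the highest median (1.67) and smooth muscle and contractile genes the lowest (-0.72), while all 21 interferon-stimulated genes lay below 0 with 0 called.

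Falls were called in other groups of genes. In bone formation, 4 of 20 tested osteoblast genes fell and 0 rose (median -0.35). Sp7, which encodes the osteoblast transcription factor osterix, read 8.51, 8.61, 8.13 and 8.60 in vehicle and 6.73, 7.48, 6.85 and 6.47 with rosiglitazone (-1.58 ± 0.44, adjusted p = 0.017). Smpd3, a sphingomyelinase needed for bone mineralisation, fell from 7.97, 8.10, 8.30 and 8.36 to 5.95, 7.01, 6.59 and 6.12 (-1.77 ± 0.32). The bone morphogenetic proteins Bmp4 (-1.27 ± 0.25) and Bmp2 (-1.28 ± 0.34) fell as well. The groups did not overlap for any of these 4, as was so with the lower level under rosiglitazone for 7.95% of all genes tested. Pool 15 kept the highest value of Sp7 and of Smpd3 with rosiglitazone. Alpl, alkaline phosphatase, an early osteoblast enzyme, differed by -0.42 ± 0.27 (adjusted p = 0.467) at levels of 10.53, 10.60, 10.30 and 10.51 against 10.10, 10.30, 9.82 and 10.03. Col1a1, the main collagen of bone, differed by -0.20 ± 0.18 (adjusted p = 0.653), and Bglap, osteocalcin, a late marker, was near the table median in both groups (0.29 ± 0.23, adjusted p = 0.589). Without pool 19 or without pool 20 the count was 2, with Sp7 (adjusted p = 0.0766 and 0.212) and Bmp2 (0.0634 and 0.192) lost. With the replicate block it was 6, and with only the 8 arrays 9.

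The signals by which stromal cells govern osteoclasts moved unequally. Tnfrsf11b, the decoy receptor osteoprotegerin, which restrains osteoclasts, fell from between 8.10 and 9.05 to 5.80, 6.82, 6.92 and 6.42 (-2.09 ± 0.32, adjusted p = 6.7e-06, 4.25-fold lower). Its ligand RANKL, encoded by Tnfsf11, went from 6.49, 6.37, 5.79 and 5.66 to 7.17, 6.89, 6.32 and 6.46, higher in each pool (0.63 ± 0.25). The rise of Tnfsf11 was not called without the replicate block (adjusted p = 0.145) and was called with it (0.02). Pools 12 and 15 lay above pools 19 and 20 in both groups. Csf1, the growth factor of macrophages and osteoclasts, fell by 0.49 on the log2 scale (SE 0.13), and Efnb2, an ephrin, by 0.90 (SE 0.19). On this list 3 of 10 fell and 0 rose (median -0.01). Csf1 was not called without pool 19 (adjusted p = 0.0796) or pool 20 (0.199), which leaves 2. Of 15 osteoclast genes only Car2 was called (0.87 ± 0.25), and it was not called without pool 15 (adjusted p = 0.0616), pool 19 (0.158) or pool 20 (0.137), which leaves 0.

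Genes of tendon and cartilage fell in part, 4 of 18 tested with 0 rises (median -0.17). Scx, the tendon transcription factor scleraxis, went from 6.59, 7.02, 6.55 and 7.14 to 5.12, 5.52, 5.31 and 5.48 (-1.47 ± 0.24, adjusted p = 2.43e-05). Sox9, the cartilage regulator, fell by 1.14 on the log2 scale (SE 0.24), Col2a1, cartilage collagen, by 0.98 (SE 0.24) and Tnmd, the tendon protein tenomodulin, by 0.73 (SE 0.20). The count was 2 without pool 20, where Col2a1 (adjusted p = 0.104) and Tnmd (0.212) were lost. Tnmd was lost without pool 19 too (0.0788). Mgp, matrix Gla protein, an inhibitor of calcification, fell from 10.07, 10.17, 9.78 and 9.67 to 8.87, 9.04, 8.71 and 8.44 (-1.16 ± 0.22). It was the 1 call among 14 osteocyte and mineral genes.

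Contractile genes fell broadly, 14 of 22 tested with 0 rises and a median of -0.72. All 22 lay below 0. Myocd, which encodes myocardin, the coactivator that drives smooth muscle genes through serum response factor, read 5.84, 6.02, 6.84 and 6.82 in vehicle and 4.33, 5.47, 4.94 and 5.01 with rosiglitazone (-1.44 ± 0.19, adjusted p = 3.64e-07). Hspb7, a small heat shock protein of muscle, fell from 8.33, 8.86, 8.99 and 9.07 to 5.87, 7.14, 7.00 and 6.82 (-2.10 ± 0.37, 4.3-fold lower). Mustn1, a small protein of muscle and bone (-1.28 ± 0.19), and Lmod1, an actin nucleator of smooth muscle (-1.15 ± 0.22), fell too. Acta2, smooth muscle actin, lay far above them at 12.43, 12.48, 12.52 and 12.62 and read 11.80, 12.05, 12.12 and 12.03 with rosiglitazone. Its groups did not overlap, as was so with the lower level under rosiglitazone for 7.95% of all genes tested, but its difference of -0.51 ± 0.18 missed the threshold (adjusted p = 0.0728). With only the 8 arrays in the fit Acta2 was called (0.00487), as it was without pool 12 (0.00906). The count was 8 without pool 20.

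Serum response factor itself and genes it is known to control were part of the same picture. Of 21 tested immediate early and serum response genes 8 fell and 0 rose (median -0.47). Ccn2, connective tissue growth factor, went from 10.34, 10.51, 10.69 and 10.88 to 8.21, 9.19, 8.99 and 8.38 (-1.91 ± 0.27, adjusted p = 1.5e-06). Srf, the factor's own gene, went from 8.18, 8.21, 8.52 and 8.64 to 7.68, 7.92, 7.79 and 7.81 (-0.59 ± 0.10). Ccn1 fell by 0.90 on the log2 scale (SE 0.18) and Fosl2, an AP-1 subunit, by 0.79 (SE 0.13). Ankrd1, a cardiac ankyrin repeat protein used as a readout of mechanical signalling, fell from 8.63, 9.19, 8.59 and 8.28 to 6.46, 8.12, 6.90 and 5.88 (-1.84 ± 0.43). Ankrd1 varied most between pools and was not called without pool 12 (adjusted p = 0.0549).

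As these genes fell together, their promoters were searched in both strands for the CArG box, the element that serum response factor binds. RefSeq promoters (GRCm38.p6, 250 bases before to 50 after each start) were at hand for 11614 of the tested genes. The CArG box occurred in 1.63% of all 32851 promoters in the table and in a promoter of 1.58% of the tested genes that had one. It occurred for 19 of 359 genes that fell (5.29%) and for 6 of 479 that rose (1.25%). Among the contractile genes that fell it occurred for 3 of 11, and among the immediate early and serum response genes that fell for 2 of 6. The second list was drawn up to hold targets of serum response factor. Members of the 2 lists that did not fall were not counted, so whether these shares go with the fall was not tested. The following 4 upstream sequences, each of 250 bases ending at the start site, show the element in genes that fell, with the CArG box in capitals. They were chosen after the values were seen.
Myl9, chr2:156775214-156775463, plus strand: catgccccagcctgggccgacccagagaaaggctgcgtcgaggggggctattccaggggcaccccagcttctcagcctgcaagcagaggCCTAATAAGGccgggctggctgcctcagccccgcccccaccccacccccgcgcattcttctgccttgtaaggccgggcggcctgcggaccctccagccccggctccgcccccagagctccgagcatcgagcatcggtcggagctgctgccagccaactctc
Cnn2, chr10:79988350-79988599, plus strand: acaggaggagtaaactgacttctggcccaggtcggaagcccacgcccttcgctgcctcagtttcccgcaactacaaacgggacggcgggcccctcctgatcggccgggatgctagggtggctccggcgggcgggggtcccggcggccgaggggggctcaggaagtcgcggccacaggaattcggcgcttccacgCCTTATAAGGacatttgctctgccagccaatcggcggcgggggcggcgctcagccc
Srf, chr17:46556163-46556412, minus strand: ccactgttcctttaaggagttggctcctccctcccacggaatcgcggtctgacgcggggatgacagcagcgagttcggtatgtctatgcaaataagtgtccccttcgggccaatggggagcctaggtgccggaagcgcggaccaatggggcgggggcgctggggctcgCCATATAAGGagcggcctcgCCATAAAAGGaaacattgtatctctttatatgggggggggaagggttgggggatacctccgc
Myom1, chr17:71019307-71019556, plus strand: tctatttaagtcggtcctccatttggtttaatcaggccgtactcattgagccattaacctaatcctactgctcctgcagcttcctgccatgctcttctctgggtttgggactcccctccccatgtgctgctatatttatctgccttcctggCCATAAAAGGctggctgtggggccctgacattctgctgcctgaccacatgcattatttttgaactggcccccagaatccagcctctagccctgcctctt
Srf holds 2 of the boxes and the others 1 each. Myl9, the regulatory light chain of smooth muscle myosin, read 11.30, 11.28, 11.49 and 11.45 in vehicle and 10.34, 10.53, 10.56 and 10.48 with rosiglitazone (-0.90 ± 0.17). Cnn2, a calponin, fell by 0.72 on the log2 scale (SE 0.14). Myom1, a myomesin of the sarcomere, fell from 7.49, 7.11, 7.61 and 7.68 to 5.30, 6.00, 6.20 and 5.83 (-1.64 ± 0.31). A match is a description of the letters only.

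The genes that rose were searched in the same way for the element of PPARγ with RXR, in both strands. This element, called DR1, is a pair of AGGTCA copies in the same direction with any 1 base between them. The full repeat occurred in 13 of 32851 promoters, for 0 of 479 genes that rose and for 2 of 359 that fell. A single AGGTCA, which is part of the repeat, occurred for 14.2% of the genes that rose, 13.9% of those that fell and 15.1% of all tested genes with a promoter. The short element CATTCC, known as the MCAT motif of TEAD factors, occurred for 16.9% of the genes that rose, 17.5% of those that fell and 14.4% of all tested genes with a promoter. Among the contractile genes that fell it occurred for 5 of 11 (45.5%), and among the immediate early and serum response genes that fell for 2 of 6 (33.3%). Here too the members that did not fall were not counted. No match says only that the letters are not in this window.

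Several genes that fell had been higher in vehicle than in naive cultures, as the plot of naive, vehicle and rosiglitazone levels shows for 8 of them chosen after their values were seen. Hspb7 averaged 6.64 ± 0.25 (SD, n = 4) in naive cells, 8.81 ± 0.33 in vehicle and 6.71 ± 0.57 with rosiglitazone. Prss46, a serine protease gene, averaged 4.66 ± 0.29, 6.18 ± 0.22 and 4.45 ± 0.24. Ptgs2, which encodes the prostaglandin enzyme cyclooxygenase 2, averaged 5.25 ± 0.34, 6.66 ± 0.21 and 4.52 ± 0.60. Its arrays read 6.38, 6.88, 6.66 and 6.71 in vehicle and 4.38, 5.25, 4.62 and 3.81 with rosiglitazone, and it had the largest called fall (-2.14 ± 0.44, adjusted p = 0.000742). Vehicle exceeded naive by 2.17 ± 0.37 for Hspb7, 1.52 ± 0.19 for Prss46 and 1.41 ± 0.44 for Ptgs2 (adjusted p = 4.8e-05, 1.03e-06 and 0.0212). Rosiglitazone differed from naive by 0.07 ± 0.37, -0.21 ± 0.19 and -0.73 ± 0.44 for the same genes (adjusted p = 0.92, 0.476 and 0.236). Over all genes tested, vehicle was higher than naive for 12.9% and lower for 4.86% (17.7% in either direction), and rosiglitazone was higher for 17.5% and lower for 7.89% (25.4%). Both comparisons share arrays with that of rosiglitazone and vehicle. Smpd3 was lower with rosiglitazone than in naive cells (-0.88 ± 0.32, adjusted p = 0.038).

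**Figure D3:**
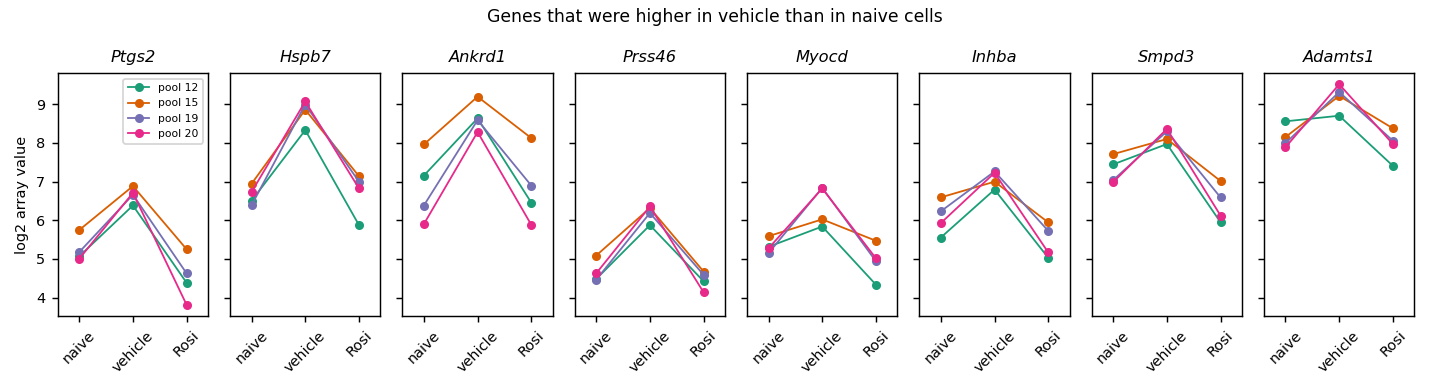
Log2 array values (y axis) of 8 genes in naive cultures and in vehicle and rosiglitazone (Rosi) cultures at day 1, with a line for each pool. Each gene was higher in vehicle than in naive cells and lower again with rosiglitazone, such as Hspb7 with means of 6.64, 8.81 and 6.71.

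Growth factor pathways that shape stromal fate changed in both directions. In the TGF-β and BMP pathway 9 of 37 tested genes fell and 3 rose (median -0.12). The ligands Tgfb3 (-1.22 ± 0.20) and Inhba, an activin subunit (-1.60 ± 0.30), fell. Inhba read 6.79, 7.00, 7.26 and 7.23 in vehicle and 5.03, 5.94, 5.72 and 5.17 with rosiglitazone. Skil, a feedback inhibitor of SMAD signalling, fell by 1.25 on the log2 scale (SE 0.22). The BMP antagonist Chrdl1 rose from 8.04, 8.14, 7.09 and 7.28 to 9.44, 9.48, 9.19 and 9.47 (1.76 ± 0.26), and Tgfbr3, the co-receptor betaglycan, rose by 1.09 ± 0.18. There were 6 falls without pool 19 and 6 without pool 20.

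In the Wnt pathway 6 of 45 fell and 5 rose (median 0.01). The falls were led by Lgr5, a receptor for R-spondins (-1.92 ± 0.43, 2 arrays under 4.05 with rosiglitazone), and Ccn4, a secreted Wnt target (-1.65 ± 0.34). Lgr5 read 6.72, 6.71, 5.53 and 6.06 in vehicle and 4.41, 5.04, 3.88 and 3.99 with rosiglitazone. The rises were led by the receptors Fzd4, from 7.73, 7.16, 6.89 and 7.10 to 8.66, 8.96, 8.58 and 8.77 (1.53 ± 0.23), and Fzd1 (0.72 ± 0.14). Without pool 19 there were 3 of each. Without pool 20 there were 1 fall and 2 rises, and Lgr5 was not called (adjusted p = 0.0759). Edn1, the vasoconstrictor endothelin 1, fell from 6.76, 6.69, 7.50 and 7.58 to 5.02, 5.71, 5.61 and 5.02 (-1.79 ± 0.35), and without pool 20 it missed the threshold (adjusted p = 0.0533). On the insulin-like growth factor list 2 of 14 fell, the protease Pappa (-1.02 ± 0.26) and the receptor Igf1r (-0.55 ± 0.15), with 0 called without pool 19 and 0 without pool 20 (adjusted p from 0.0849 for Pappa without pool 20 to 0.165 for Igf1r without pool 20).

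Matrix genes were called in both directions. Among matricellular and small leucine-rich proteins 6 of 33 fell and 1 rose (median -0.36). The exception was Ccn3, which went from 5.84, 5.94, 5.76 and 6.00 to 7.07, 7.38, 7.40 and 7.47 (1.44 ± 0.32) while its relatives Ccn1, Ccn2 and Ccn4 fell. Without pool 20, Ccn3 missed the threshold (adjusted p = 0.0527), and the falls numbered 3 without pool 15, without pool 19 and without pool 20. Of 25 collagens, limma called 2 rises, Col6a1 (0.38 ± 0.12) and Col6a2 (0.47 ± 0.15), and 0 falls. Neither was called without pool 19 (adjusted p = 0.264 and 0.188) or pool 20 (both 0.215). Col6a1 was also lost without pool 15 (0.0938) and Col6a2 without pool 12 (0.146). Both were lost with no filter on low values (0.0534 and 0.0619), and Col6a1 with the mean of probe sets (0.0547). Among proteases and inhibitors 2 of 21 rose and 2 fell (median -0.30). Adamts15, a proteoglycan-cleaving protease, rose from 5.94, 4.90, 4.57 and 4.40 to 8.14, 7.78, 7.64 and 7.71 (2.87 ± 0.34), and Adamts9 rose by 1.54 ± 0.38. Adamts1, a related enzyme (-1.24 ± 0.22), and the inhibitor Timp3 (-1.10 ± 0.29) fell. Adamts9 was lost without pool 15 (adjusted p = 0.059), pool 19 (0.0561) and pool 20 (0.138), and Timp3 without pool 19 (0.0708) and pool 20 (0.143). Cemip, a hyaluronan-degrading protein, fell by 1.55 on the log2 scale (SE 0.37), except that it was not called without pool 20 (adjusted p = 0.095). Map3k7cl, a gene of little known function, fell from 8.16, 7.76, 8.52 and 8.79 to 5.74, 6.26, 6.63 and 6.04 (-2.14 ± 0.20).

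Stromal cells of the marrow niche are marked by the leptin receptor and by factors that sustain blood stem cells. On the niche list 6 of 19 rose and 2 fell, and 11 of 19 lay above 0 (median 0.05). Lepr, the leptin receptor, went from 8.03, 7.32, 5.39 and 5.65 to 10.07, 9.36, 8.59 and 8.71 (2.58 ± 0.54, adjusted p = 0.000998, 6.0-fold). Its vehicle arrays differed by more than 2 log2 units between pools, with pools 12 and 15 high and pools 19 and 20 low, and the rise was 2.03 in pool 12 and 3.20 in pool 19. Angpt1, which encodes angiopoietin 1, rose from 8.36, 8.35, 7.75 and 7.82 to 9.31, 9.24, 9.26 and 9.35 (1.22 ± 0.29). Il7, the B lymphocyte growth factor, rose by 1.17 ± 0.22, and Vcam1, an adhesion molecule, by 0.80 ± 0.19. Cxcl12, the chemokine that holds stem cells in the niche, differed by 0.29 ± 0.12 (adjusted p = 0.172, and 0.0241 without pool 12). Without pool 15 the list had 4 rises, without pool 19 it had 3 and without pool 20 it had 2. The falls numbered 1 without pool 12, 0 without pool 19 and 0 without pool 20. Angpt1 was lost without pool 19 (adjusted p = 0.0627) and pool 20 (0.113), and Vcam1 without pool 20 (0.067).

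Inflammatory and blood cell lists had at most 2 calls each, beside 4.16% of all genes tested that rose and 3.08% that fell. The share that fell was larger than that on the prostaglandin, inflammatory and chemokine lists, and it rested on 1 or 2 genes in each. Of 17 prostaglandin genes only Ptgs2 was called. Lif (-0.60 ± 0.16), a cytokine, and Ptx3 (-0.93 ± 0.27), a pentraxin, were the 2 of 22 inflammatory genes called, and of 25 chemokine genes the 2 called were Cx3cl1, a membrane-bound chemokine (-0.55 ± 0.12), and Ccr3, an eosinophil and mast cell receptor (-1.30 ± 0.31). Lif was lost without pool 12 (adjusted p = 0.172) and pool 19 (0.11). Ptx3 was lost without pool 15 (0.125), pool 19 (0.0973) and pool 20 (0.196). Ccr3 was lost without pool 20 (0.147). Of 21 interferon-stimulated genes limma called 0, also 0 at an unadjusted p under 0.05, yet all 21 lay below 0 (median -0.60). Their mean level spread widely over pools, from 6.83 to 8.47 in vehicle and from 6.60 to 7.93 with rosiglitazone. Of 26 macrophage genes limma called 0, with 0 higher and 1 lower at an unadjusted p under 0.05. Their mean level ran from 9.10 to 9.33 in vehicle and from 8.88 to 9.10 with rosiglitazone (median difference -0.16), with Clec4f and Timd4 under 4.05 on all 8 arrays. The part of these cells in the results above was not tested. Limma also called 0 of 18 neutrophil, 11 B cell, 12 T and NK cell and 19 endothelial genes, with 0, 2, 0 and 1 higher and 0 lower in each at an unadjusted p under 0.05. Epor, the erythropoietin receptor, was the 1 call among 7 erythroid and megakaryocyte genes (0.66 ± 0.17), and it was lost without pool 20 (adjusted p = 0.0859).

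Calls among markers of proliferation, stress and hormone response stand beside 4.16% of all genes tested that rose and 3.08% that fell. The glucocorticoid and NRF2 lists had a larger share of rises than that. Of 38 cell cycle genes 1 fell, Ccnd1, cyclin D1 (-0.76 ± 0.21), and 1 rose, Cdkn2c, an inhibitor of its kinase (0.75 ± 0.23), around a median of 0.10. Both were lost without pool 15 (adjusted p = 0.0718 and 0.131), pool 19 (0.105 and 0.141) and pool 20 (0.141 and 0.301). All groups at day 1 received dexamethasone, and Fkbp5, a classical glucocorticoid receptor target, was at 7.63, 8.15, 7.79 and 7.60 in vehicle and 7.37, 8.11, 7.74 and 7.67 with rosiglitazone, against a mean of 5.80 in naive cells. Its difference between the day 1 groups was -0.07 ± 0.21 (95% confidence interval from -0.49 to 0.35). On the glucocorticoid list 4 of 19 rose and 0 fell (median 0.20), among them Angptl4, the metallothionein Mt2 (1.14 ± 0.25) and Hsd11b1, which regenerates active glucocorticoid (0.59 ± 0.16). The count was 1 without pool 19 and 2 without pool 20. Hsd11b1 was lost without pool 15 (adjusted p = 0.0811), pool 19 (0.0524) and pool 20 (0.176), and Mt2 without pool 19 (0.0502). Mgst1, a microsomal glutathione transferase, rose from 7.44, 7.46, 7.41 and 7.39 to 8.83, 8.48, 8.62 and 8.74 (1.24 ± 0.13). With Sod2 (0.35 ± 0.11) and Gsr (0.30 ± 0.09), antioxidant enzymes, it made up the 3 rises among 20 NRF2 genes. Bhlhe40, a clock repressor, was the 1 call of 17 clock genes (-0.72 ± 0.23), and it was lost when any 1 pool was left out (adjusted p from 0.0539 without pool 12 to 0.32 without pool 20). Manf, a secreted protein of the stressed endoplasmic reticulum, was the 1 call of 29 stress response genes (-0.40 ± 0.12), and it was lost without pool 12 (0.103), pool 19 (0.222) and pool 20 (0.274). Of 23 lysosome genes limma called 0, also 0 at an unadjusted p under 0.05. Of the NRF2 genes, Mgst1 alone was called when any 1 pool was left out (Sod2 adjusted p from 0.0508 to 0.302, Gsr from 0.0952 to 0.16).

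The same treatment was also measured at day 4. There, 3183 genes were higher (21.3%) and 4133 lower (27.7%) with rosiglitazone, 49.1% in all. Of the 621 rises of day 1, 449 rose at day 4 (72.3% of them, and 14.1% of the day 4 rises), 36 fell (5.8%) and 136 were not called. Of the 460 falls, 335 fell at day 4 (72.8% of them, and 8.11% of the day 4 falls), 26 rose (5.65%) and 99 were not called. The arrays of the 2 days are separate, while the pools of animals are shared. The difference between the effects at day 4 and day 1 was tested directly, and 2149 genes had the more positive effect at day 4 (14.4%) and 2331 the more negative (15.6%), 30.0% in all. These counts were 1329 and 1077 without pool 20 and 1561 and 1143 without pool 19.

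Many genes of oxidative and lipogenic metabolism had the more positive effect at day 4. In the respiratory chain the effect was more positive at day 4 for 34 of 35 genes and more negative for 0, with a median shift of 1.24. It was more positive for 22 of 24 β-oxidation genes (median 1.27) and 22 of 25 tricarboxylic acid cycle genes (1.23), with 1 more negative in each. It was more positive for 17 of 19 branched-chain amino acid genes (1.28) and 12 of 16 fatty acid synthesis genes (1.80) with 0 more negative, against a median of -0.06 over all genes. Among called genes the most positive shifts were those of Elovl3, an elongase of brown fat (6.75), Cox8b, a brown fat subunit of cytochrome oxidase (6.11), Cyp2e1, a cytochrome P450 (5.91), Tmem45b (5.44) and Cidea (4.86). Elovl3 stood at 2.53, 2.74, 3.26 and 3.27 with rosiglitazone on day 1 and at 10.28, 8.18, 11.03 and 10.87 on day 4. Ppargc1a shifted by 3.98 (adjusted p = 1.13e-08) and stood at 7.84, 6.71, 8.31 and 8.64 on day 4. Called shifts of droplet and triglyceride genes were mostly positive too. The effect was more positive at day 4 for 7 of 15 lipid droplet genes and more negative for 1 (list median 0.32 at day 1 and 3.20 at day 4). It was more positive for 8 of 12 lipolysis genes and for 11 of 16 triglyceride assembly genes, with 0 more negative in each. Plin4 shifted by 2.51. Plin1 differed by 4.73 and 4.81 on the 2 days, Aqp7 by 3.49 and 3.42, and G0s2 by 3.35 and 3.66, and the shifts of these 3, picked after their values were seen, were not called (adjusted p = 0.942, 0.908 and 0.542).

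**Figure D4:**
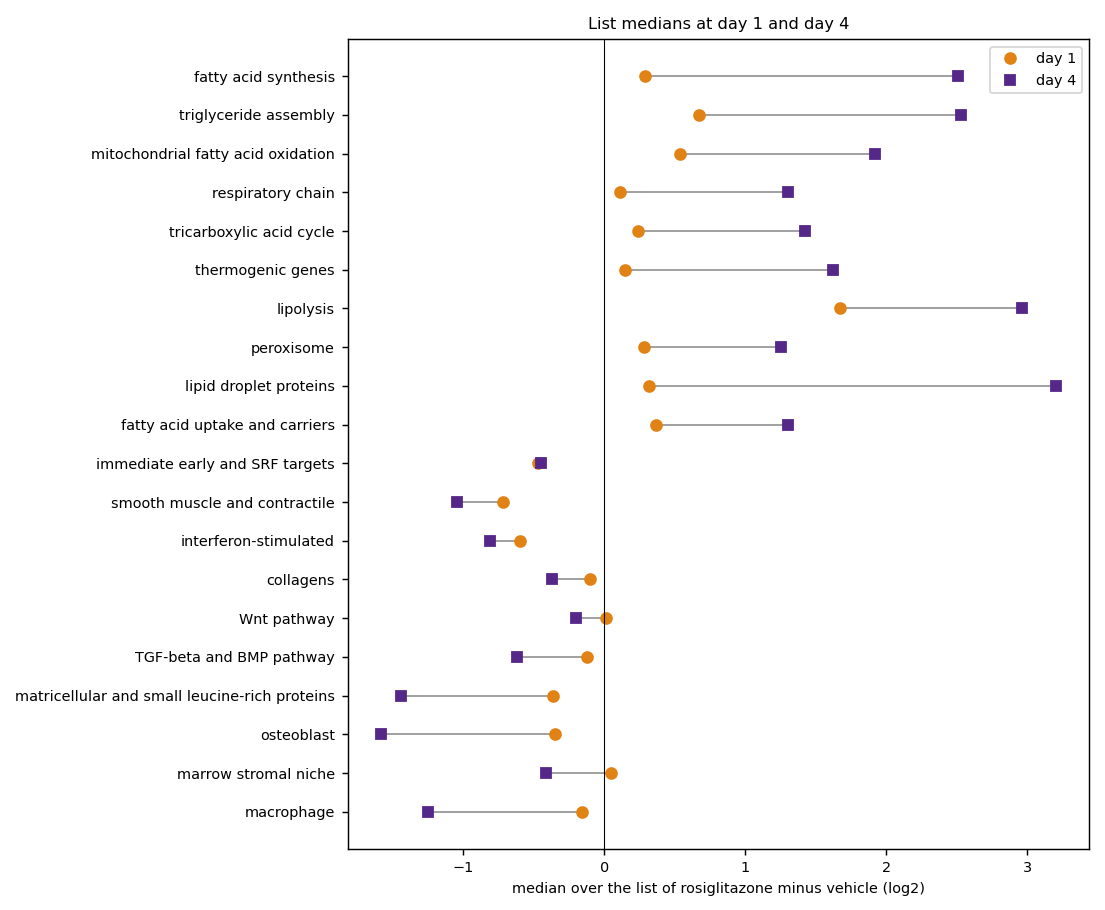
Median over each of 20 gene lists of the difference between rosiglitazone and vehicle (x axis, log2) at day 1 (circles) and day 4 (squares), ordered from the lists whose members had the most positive shift at the top. The respiratory chain moved from 0.11 to 1.30 and fatty acid synthesis from 0.29 to 2.51, whereas immediate early and serum response genes stood at -0.47 and -0.45.

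Many bone, matrix, macrophage and cell cycle genes had the more negative effect at day 4. It was more negative at day 4 for 10 of 20 osteoblast genes (median shift -1.02), 21 of 33 matricellular genes (-0.99), 17 of 26 macrophage genes (-1.05) and 31 of 38 cell cycle genes (-1.18). It was called more negative for 0 of 18 neutrophil, 11 B cell, 12 T and NK cell and 13 mast cell, basophil and eosinophil genes (medians -0.59, -0.11, -0.12 and -0.39). Alpl, not called at day 1, differed by -2.29 at day 4, where vehicle read 9.39, 10.40, 10.96 and 11.17 and rosiglitazone 8.32, 8.30, 8.20 and 7.93 (shift -1.87, adjusted p = 0.000235). Col1a1 shifted by -1.16 (adjusted p = 0.000442). Contractile genes differed from these: 4 of 22 had the more negative effect at day 4 and 4 the more positive (median -0.15). Among called genes the most negative shifts were those of P2rx2, an ATP-gated channel (-3.36), C1qtnf3, a secreted C1q relative (-3.00), Cd5l, a macrophage protein (-2.99), Mmp13, the collagenase of bone (-2.89), and Pi15, a protease inhibitor (-2.89). None of these 5 was called at day 1. Some lost the call with 3 pools: C1qtnf3 without pool 20 (adjusted p = 0.0668), Pi15 without pool 19 (0.0583) and pool 20 (0.0618), and Cd5l without pool 12 (0.0649), pool 19 (0.0567) and pool 20 (0.0731).

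The effect on niche genes was more negative at day 4 for 11 of 19 and more positive for 1 (median shift -1.02). Lepr at day 4 read 7.72, 8.94, 9.44 and 9.58 in vehicle and 9.67, 9.05, 8.75 and 8.75 with rosiglitazone, so that it was higher in pools 12 and 15 and lower in pools 19 and 20. Its shift was -2.45 (adjusted p = 0.0129), and it was not called without pool 19 (0.103) or pool 20 (0.164). Vehicle cultures of pools 19 and 20 had the lowest Lepr at day 1 and the highest at day 4. Il7 (-1.34), Angpt1 (-1.35) and Vcam1 (-1.02) shifted likewise. Il7 was lost without pool 19 (adjusted p = 0.0583). Angpt1 and Vcam1 were lost without pool 19 (0.179 and 0.0912) and pool 20 (0.217 and 0.0909). Pdgfra, the PDGF receptor of stromal cells, chosen after its values were seen, reversed in all 4 pools. It rose at day 1 from 9.22, 9.09, 9.11 and 9.08 to 9.78, 9.84, 9.80 and 9.71 (0.66 ± 0.19), while at day 4 vehicle read 9.85, 9.45, 9.67 and 9.60 and rosiglitazone 8.29, 8.64, 7.54 and 7.43. Its shift was -2.33 (adjusted p = 3.66e-08), and the rise at day 1 was not called without pool 15 (adjusted p = 0.119), pool 19 (0.129) or pool 20 (0.16).

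LG268 is a ligand of RXR, the partner of PPARγ, and was given at the same 100 nM for the same day, so the 2 chemicals were compared directly, as the 1 pair with matched dose and time. Rosiglitazone cultures were higher for 539 genes (3.61%) and lower for 504 (3.38%) than LG268 cultures, 6.99% in all. Without pool 15 the counts were 325 and 307, without pool 19 they were 263 and 249, and without pool 20 they were 204 and 145. Against vehicle, LG268 had 34 rises (0.228%) and 2 falls (0.0134%), 0.241% in all. Of 12 lipolysis genes 8 were higher with rosiglitazone than with LG268 and 0 lower (median 1.34), and of 16 triglyceride assembly genes 5 were higher and 1 lower (0.52). In fatty acid synthesis 1 of 16 was higher and 1 lower (-0.23), and in uptake 2 of 16 were higher and 1 lower (0.17). The 5 largest called differences were those of Lgals12 (3.52), Adcy5 (3.43), Plin1 (3.29), Aldh1a7 (3.05) and Adh1 (2.94). Pparg and Cebpa were higher with rosiglitazone than with LG268 by 0.65 ± 0.14 and 1.05 ± 0.15 (adjusted p = 0.00122 and 3.49e-06). Without pool 20 the first was not called (0.0607). Angptl4, at 2.98 above vehicle with rosiglitazone and 2.19 with LG268, differed between them by 0.79 (adjusted p = 0.0026).

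Several LXR targets had the higher level with LG268. RXR is known to pair with LXR as well as with PPARγ. Of 15 tested 5 were lower with rosiglitazone than with LG268 and 1 higher (median -0.44). Abca1 differed from vehicle by 0.37 with rosiglitazone and by 2.11 with LG268, and between the 2 by -1.74 (adjusted p = 1.98e-10). Apoc2, an apolipoprotein, was 2.39 lower and Cyp26b1, which degrades retinoic acid, 2.10 lower with rosiglitazone on the log2 scale. Against vehicle they differed by -0.51 and -0.54 with rosiglitazone (neither called) and by 1.88 and 1.56 with LG268. For Scd1, Srebf1, Acaca and Abcg1 the chemicals were not told apart, with 95% confidence intervals of the difference from -0.71 to 0.41, -0.75 to 0.04, -0.72 to 0.30 and -0.93 to 0.02. Ccr3 fell by 1.30 on the log2 scale with each, the interval of their difference running from -0.61 to 0.62.

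Contractile genes also differed between the chemicals. Of 22 tested, 16 were lower with rosiglitazone than with LG268 and 0 higher (median -0.77), while the median of LG268 against vehicle was -0.07 with 0 called. Ccn2 was 1.97 lower, Map3k7cl 1.96 lower and Lgr5 2.43 lower with rosiglitazone, and all 3 were called with each pool left out. Tnfrsf11b was 1.67 lower (adjusted p = 0.000343) and Myocd 0.90 lower (0.00122, and 0.0524 without pool 20). For Sp7 the difference of -1.04 was not called (adjusted p = 0.183). The other chemicals, at other or unstated doses, are given side by side only. Plin1 stood above vehicle by 4.73 with rosiglitazone, 1.69 with TBT, 1.76 with TPhP and 2.16 with MEHP. For Ccn2 the differences were -1.91, -0.39, -0.57 and -0.55, and for Ptgs2 they were -2.14, -1.44, -1.32 and -1.69.

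**Figure D5:**
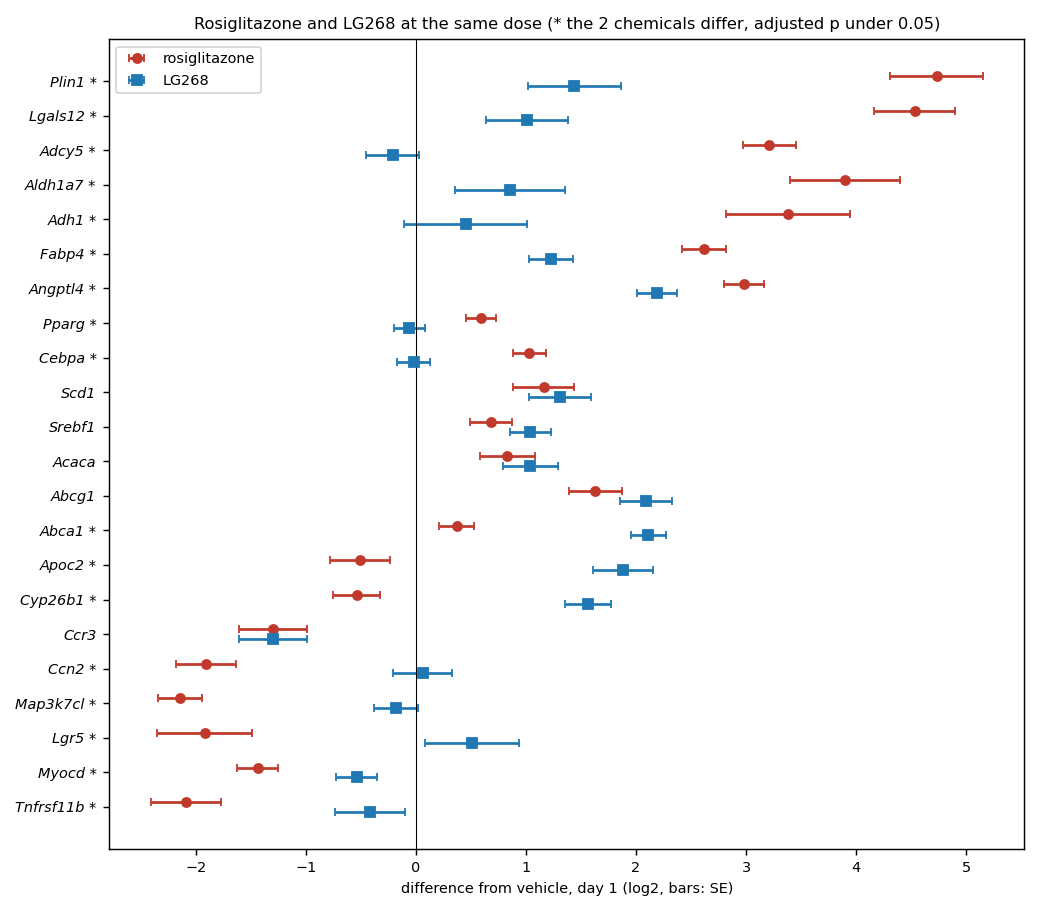
Difference from vehicle at day 1 (x axis, log2) with rosiglitazone (circles) and with LG268 (squares), both at 100 nM, for 22 genes; bars are SE and an asterisk marks genes that differ between the chemicals. Plin1 stood at 4.73 against 1.44, Abca1 at 0.37 against 2.11 and Ccn2 at -1.91 against 0.06.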

How the data were processed

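The 52 cultures were each hybridised to an Affymetrix Mouse Gene 2.0 ST array, and 8 of these form the comparison of rosiglitazone with vehicle at day 1. The values deposited by the authors are log2 probe set levels. The submitters' processing notes name R 3.3.1 and the package oligo without giving their role. How the authors corrected background and normalized is not given in the sources used here. Of 41345 probe sets, 23521 have 1 gene symbol in the platform annotation, 1814 have several and 16010 have none. A gene's level was that of its single-symbol probe set with the highest mean. Other probe sets of Adh1, Ccn2, G0s2, Gpd1 and Lgr5 gave smaller differences (0.17, -0.44, 1.11, 1.85 and -0.38). So did those of Aldh6a1, Angpt1, Gpat3, Prdm16 and Suclg2 (0.57, 0.92, 0.80, 0.19 and 0.11). Those of Alpl, Car3, Col6a1 and Lpl gave slightly larger differences (-0.53, 4.92, 0.40 and 0.98). Genes above 4.05, the table median, on at least 4 arrays were tested, 14911 in all, with 7269 set aside. limma 3.58.1 in R 4.3.3 fitted 1 mean for each of 13 groups over all 52 arrays, which share an estimate of the spread, and p-values were adjusted by Benjamini-Hochberg over all genes tested.

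The text names the 15 largest called rises and falls with 1 sign in 4 of 4 pools, up to 4 called members of each of 50 lists by adjusted p, a set of key genes, and the 5 largest called differences each way in the other 2 main contrasts. Genes outside this rule are said to be so or were taken from a list for a role. Members, lists and rule were chosen with earlier results of these data known. The numbers 12, 15, 19 and 20 name pools of animals, and deviations of same-numbered arrays from their group means correlated at 0.623, 0.307, 0.423 and 0.418, so arrays of 1 number were treated as pairs in the fit with a replicate block, an alternative, while the calls reported come from the fit without it. The alternatives tried were a block for the pool, a fit of the compared arrays alone, cyclic loess, the mean of probe sets, no filter or a stricter one, and leaving out each pool. Promoters are those of RefSeq (GRCm38.p6).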

Additional observations from a re-analysis of the deposited data

Results flagged for a closer look

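In 10 of 284 groups of 4 arrays, 1 array stood far from the other 3, where chance alone marks about 1 group in 20. In vehicle these were pool 12 for Acaca (7.92, the others from 7.68 to 7.71), Angptl4 (7.67, from 7.92 to 7.96), Col2a1 (8.75, from 8.53 to 8.57), Idh3a (8.07, from 8.35 to 8.39) and Otop1 (3.28, from 3.64 to 3.71). With rosiglitazone they were pool 12 for Col1a1 (11.71, from 12.09 to 12.11) and Col6a1 (11.41, from 11.68 to 11.70), pool 15 for Angptl4 (10.64, from 10.90 to 10.94), and pool 19 for Chrdl1 (9.19, from 9.44 to 9.48) and Fmo1 (9.91, from 10.14 to 10.18).

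For 64 of 142 named genes tested, the effect of rosiglitazone at day 4 differed from that at day 1 (limma's interaction term, adjusted p under 0.05), against 30.0% of all genes. Many named genes were picked by their day 1 difference, which enters this term, so these shares are not a like comparison. The values below are the day 4 effect minus the day 1 effect on the log2 scale, over 4 arrays in each of 4 groups. For fat storage and breakdown it was 2.51 for Plin4, 1.50 for Fitm2, 1.91 for Gpat3, 1.43 for Dgat1, 0.78 for Pnpla2, 1.29 for Cd36, -0.86 for Angptl4 and 4.17 for Sptlc3. For fatty acid synthesis and sterol-linked genes it was 2.00 for Acaca, 2.30 for Mlxipl, 1.03 for Scd1, 1.59 for Srebf1, 0.76 for Lpcat3 and -1.24 for Abcg1. For oxidation in mitochondria and peroxisomes it was 1.24 for Acaa2, 1.04 for Acadm, 0.77 for Ech1, 1.12 for Hadh, 0.64 for Pex13, 1.39 for Pex16, 0.69 for Aco1, 1.76 for Idh3a, 2.21 for Bckdhb, 1.44 for Aldh6a1 and 1.01 for Pdk4. For regulators and thermogenic genes it was 0.65 for Pparg, 3.98 for Ppargc1a, 1.18 for Ppargc1b, 1.01 for Otop1 and 0.88 for Ucp1. For insulin action and fat cell hormones it was 1.71 for Trarg1, 2.90 for Slc2a4, 0.67 for Insr, 0.58 for Irs2, -1.50 for Adipoq, 1.48 for Klb and 0.97 for Adcy5. For enzymes of detoxification and carbonic anhydrase 5b it was -2.05 for Aldh3a1, 2.47 for Ephx2, -0.54 for Gsr, 0.71 for Sod2 and 1.62 for Car5b. For bone and its osteoclast signals it was -1.87 for Alpl, -1.16 for Col1a1, -1.66 for Tnfsf11, -0.61 for Csf1 and 0.90 for Efnb2. For the niche and blood it was -2.45 for Lepr, -1.35 for Angpt1, -1.34 for Il7, -1.02 for Vcam1, -1.15 for Cxcl12 and -0.74 for Epor. For matrix and growth factor genes it was -2.88 for Ccn3, -2.51 for Adamts15, -1.45 for Chrdl1, -1.43 for Tgfbr3, 0.97 for Skil and -0.76 for Fzd1. For the remaining genes it was 0.51 for Srf, 0.95 for Map3k7cl, 1.00 for Prss46, 1.12 for Cdkn2c and 0.44 for Manf. Many of these calls were lost with 3 pools. Of 74 named genes called for this change, leaving out pool 20 kept 49, pool 19 kept 54, pool 12 kept 63 and pool 15 kept 70. Irs2 was lost when any 1 pool was left out (limma adjusted p from 0.0596 to 0.107). Insr, Klb and Ucp1 were lost without pool 12, 19 or 20, Scd1 without pool 12, 15 or 19, and Adipoq without pool 15 or 20.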

How the results depend on the processing

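With the replicate block the genes called numbered 1370 for rosiglitazone against vehicle at day 1, 5140 for the change of effect from day 1 to day 4 and 1385 for rosiglitazone against LG268, against 1081, 4480 and 1043 without it. The block ended no call of a named gene and added Abca1 (adjusted p = 0.0353), Rxra (0.0269) and Tnfsf11 (0.02) at day 1. In the other 2 comparisons only named genes already called were followed, so calls that the block added there were not counted. With 1 pool left out, the day 1 calls ranged from 430 to 1013 (304 to 580 higher, 126 to 433 lower). For the change between days they ranged from 2406 to 4365 (1329 to 2127 higher, 1077 to 2288 lower). Against LG268 they ranged from 349 to 1052 (204 to 550 higher, 145 to 502 lower). Under the other settings these counts over all genes stayed within 1.5 times their value. Counts within gene lists moved more with only the arrays compared: rises went from 2 to 11 for branched-chain amino acid genes and from 4 to 11 for tricarboxylic acid cycle genes, and falls from 4 to 9 for osteoblast genes, from 6 to 12 for matricellular genes, from 2 to 8 for matrix proteases and from 2 to 7 for chemokines. With the stricter filter the rises of thermogenic genes went from 3 to 0, because those 3 genes were set aside and not tested. It left 10 of the list tested, against 16. Pdk4, at 0.04 with all pools, read from -0.01 without pool 12 to 0.08 without pool 20, and it was not called in any of these. This was the only reversal among the named values followed. Of 130 named genes called at day 1, leaving out pool 20 kept 88, pool 19 kept 100, pool 15 kept 110 and pool 12 kept 119. No gene called at day 1 and called again under a setting had turned its sign. Leaving out any pool removed 1 array from each group, and the cause of the lost calls was not tested. With 4 pools a group, small differences are measured with wide error, and levels under 4.05 are near background.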
